A study of Homo sapiens with 118 samples.

Results

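The apolipoproteins are the protein parts of lipoproteins, the particles that carry cholesterol and triglycerides in blood. The 10 genes described are APOA1, APOA2, APOA4, APOA5, APOB, APOC1, APOC3, APOE, APOH and APOM. They were found as every row of the count table whose name, without the trailing probe number, equals one of these symbols. This gave 12 of 22069 rows, for 10 of 19470 gene symbols: 8 genes had 1 detector probe each, and APOA4 and APOC3 had 2. A row is called a feature below and keeps its deposited name, such as APOC1_19115.

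The liver is the main source of these proteins in plasma. APOB is the scaffold of very low density lipoprotein, around which the endoplasmic reticulum loads triglyceride, while APOA1 and APOA2 form the frame of high density lipoprotein. APOC1, APOC3, APOE and APOA5 exchange between particles and set how fast triglyceride is hydrolysed and how remnants are taken up by receptors. APOH binds phospholipids, APOM carries sphingosine 1-phosphate on high density lipoprotein, and APOA4 is made mainly in the intestine. Transcription of most of them in hepatocytes relies on liver-enriched factors such as HNF4A.

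Expression was measured by TempO-Seq, a targeted method that joins 2 probes lying side by side on a transcript and sequences the product, in lysates of differentiated HepaRG cells, an established human hepatic line. The cells had been exposed for 72 h, with daily renewal, to 1 of 8 histone deacetylase inhibitors at 5 concentrations, C1 (lowest) to C5 (highest). Such inhibitors keep histones and further proteins acetylated. Replicates 1, 2 and 3 of a group came from 3 HepaRG batches. Replicate 3 was lacking from panobinostat C3 and from trichostatin A C4, which left 2 libraries in each, and the other 38 groups had 3.

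Apicidin, a cyclic tetrapeptide, was given at 0.0417, 0.125, 0.376, 0.5 and 0.86 µM. The benzamides were mocetinostat at 0.1772, 0.5317, 1.595, 2.5 and 3.9 µM and tacedinaline at 1.14, 3.43, 10.3, 30.9 and 44 µM. The hydroxamic acids were panobinostat at 0.00147, 0.0044, 0.0132, 0.0396 and 0.084 µM, scriptaid at 4.94, 14.8, 44.5, 60 and 94.5 µM, trichostatin A at 0.0188, 0.0564, 0.169, 0.508 and 1.52 µM and vorinostat at 0.405, 1.21, 3.64, 10.9 and 23.5 µM. Valproic acid, a short-chain fatty acid, has dose labels of 100.5, 301.4, 904.3, 2713 and 3038 µM, but the protocol gives far smaller values in the same unit, so its unit is uncertain. Plate E held the libraries of scriptaid, vorinostat and tacedinaline, and plate H those of the remaining 5 chemicals. Solvent-treated libraries were not used here, so each concentration was compared with C1 of the same chemical, and a change complete at C1 would not be seen. The concentrations differ between chemicals, so values of different chemicals are set side by side and not tested against each other.

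Levels are given as CPM, counts relative to library size, after scaling by the trimmed mean of M values. Calls rest on edgeR's quasi-likelihood F test and needed both an adjusted p under 0.05 and a change of 1.5-fold or more. The SD is that between the libraries of a group. The sources used here say no more of these batches, and p-values measure only the spread between these libraries. The 118 libraries held 1061360 to 5250260 counts. Totals were lower at C5 in some chemicals: vorinostat had 1785300 to 4134460 counts at C1 and 1061360 to 1879290 at C5, and scriptaid 3211350 to 4181110 and 1785840 to 3123880. The part of these depth differences in the results was not tested.

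Some libraries stood apart from their group. Trichostatin A C1 replicate 3 had a mean correlation with its group of 0.86, over log2 CPM of 9072 features, and held 335 CPM of APOA1_87403 where the other libraries of that group held 2438 and 2248 CPM. Mocetinostat C2 split into replicate 3 (mean correlation 0.79) and replicates 1 and 2, and scriptaid C4 replicate 3 had the lowest value of all libraries, 0.77. Calls of apolipoprotein features were also made without these libraries. At mocetinostat C2 replicates 1 and 2 were those left out, though their mean correlations (0.85 and 0.90) were above that of replicate 3. Results on markers, gene lists and correlations include all libraries that stood apart, with no version without them. The labels name the cells as liver progenitors from a liver tumour. At C1 the hepatocyte marker ALB had a mean of 23199 CPM over all libraries, and of the biliary or progenitor markers KRT19_10816 had 39.3 CPM and SOX9_22075 22.5 CPM, while EPCAM had at most 2 counts in any library.

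Upstream sequences, from 250 bases before to 50 after the start of each gene, were available from RefSeq (GRCh38.p14) for 7 of the 10 genes; APOA1, APOB and APOC3 had no entry. Printed here are those of APOC1 and APOE, neighbours on chromosome 19 whose transcripts changed by different amounts, of APOH, whose level followed that of APOC1 over the groups, and of APOM, which was called least often. They lie at chr19:44914422-44914721 (plus strand), chr19:44905546-44905845 (plus strand), chr17:66229366-66229665 (minus strand) and chr6:31655644-31655943 (plus strand). Capitals mark matches, on either strand, to GGGCGG, a GC box, and to CCAAT, so that a match on the other strand appears as its reverse complement.
APOC1: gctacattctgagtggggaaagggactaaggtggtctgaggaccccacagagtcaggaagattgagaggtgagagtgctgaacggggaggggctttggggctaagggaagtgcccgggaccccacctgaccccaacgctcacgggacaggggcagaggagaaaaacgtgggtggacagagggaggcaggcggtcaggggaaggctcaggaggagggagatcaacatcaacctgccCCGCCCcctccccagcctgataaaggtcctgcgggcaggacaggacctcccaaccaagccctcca
APOE: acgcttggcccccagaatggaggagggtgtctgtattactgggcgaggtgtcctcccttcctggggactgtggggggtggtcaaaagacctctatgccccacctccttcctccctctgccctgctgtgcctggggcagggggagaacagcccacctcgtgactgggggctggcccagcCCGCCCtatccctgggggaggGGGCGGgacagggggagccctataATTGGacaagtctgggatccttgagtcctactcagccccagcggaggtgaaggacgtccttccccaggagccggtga
APOH: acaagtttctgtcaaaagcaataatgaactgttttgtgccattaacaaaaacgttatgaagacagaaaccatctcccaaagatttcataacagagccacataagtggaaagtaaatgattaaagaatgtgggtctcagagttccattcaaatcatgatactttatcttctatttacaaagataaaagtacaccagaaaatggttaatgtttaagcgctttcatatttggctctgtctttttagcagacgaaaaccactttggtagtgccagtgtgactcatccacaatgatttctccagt
APOM: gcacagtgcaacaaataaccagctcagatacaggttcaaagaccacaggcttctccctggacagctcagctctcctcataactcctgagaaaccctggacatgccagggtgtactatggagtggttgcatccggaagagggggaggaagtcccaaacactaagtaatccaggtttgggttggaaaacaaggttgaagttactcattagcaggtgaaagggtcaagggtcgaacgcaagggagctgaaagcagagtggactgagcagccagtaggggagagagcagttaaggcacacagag

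The APOC1 sequence holds 1 GC box, 15 bases before the start. In APOE there are 2, at 51 and 72 bases before the start, and 1 CCAAT match at 27 bases before it. Of all 27305 sequences of this length, 44.6% hold GGGCGG and 35.7% hold CCAAT, so neither is particular to these genes. APOH and APOM hold neither. TATAAA (12.0% of all sequences), CAAAGTCCA (0.359%) and TGACCTTTG (0.410%) were searched too, on both strands and with no overlap among the matches found. Among the 7 sequences, TATAAA occurs in APOA5 alone, and neither of the last 2 occurs in any. A match is a run of letters and not a binding site, and its absence says only that these letters are not in this window.

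Most apolipoprotein transcripts fell between the lowest and the highest concentration of 7 of the 8 inhibitors. In all, 61 of 87 tested pairs of feature and chemical were called lower at C5 and 0 were called higher by edgeR, with 1 higher at an unadjusted p under 0.05 and 0 called by DESeq2. The second probe of APOA4, APOA4_350, had at most 7 counts in any library and passed the filter on low counts in no chemical. APOA4_11073 passed it in 7. The remaining 10 features passed in all 8 chemicals.

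In tacedinaline the median log2 change over the tested apolipoprotein features was -3.67, with 9 of 11 called lower against 20.1% of all features. Vorinostat had -2.88 and 9 of 10 (background 24.9%), and mocetinostat with -2.84 and 11 of 11 (background 15.7%). In scriptaid 8 of 11 were called lower (median -2.41, background 17%) and in apicidin 10 of 11 (median -2.30, background 15%). Valproic acid had 8 of 11 (median -1.49, background 6.22%) and panobinostat 6 of 11 (median -0.93, background 9.46%). Over all tested features the median log2 change lay between -0.00 and 0.08 in each chemical. The share of apolipoproteins called lower was above its background in each of these 7 chemicals.

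In the other direction, 13.8% of all features were called higher in apicidin, 14.8% in mocetinostat, 6.77% in panobinostat, 12.8% in scriptaid, 18.7% in tacedinaline, 4.84% in valproic acid and 22.7% in vorinostat. Not one apolipoprotein feature was among them. Trichostatin A stood apart, with 0 of 11 called in either direction, a median of -0.14, and a background of 0.0154% lower and 0% higher. There, edgeR gave 0 features lower and 1 higher (APOM_25033) at an unadjusted p under 0.05, and DESeq2 called 0. These counts include replicate 3 of C1, the library that stood apart. Without that library 2 of 11 were called lower, and without replicate 3 at every concentration 5 of 11. The share of all features called in those fits is not given.

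**Figure D1:**
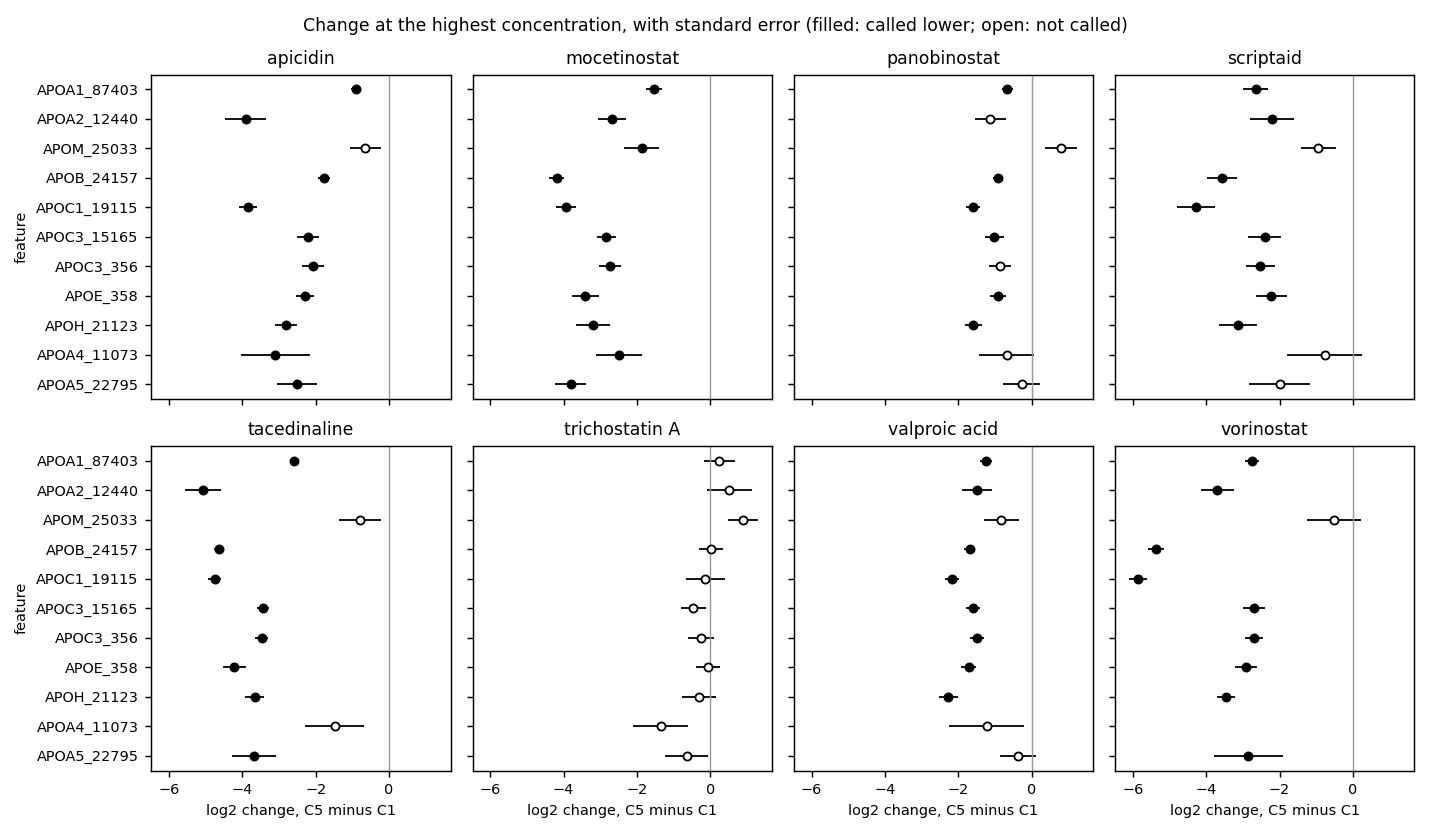
Log2 change from C1 to C5 (x axis) of the 11 tested apolipoprotein features (y axis) in each of the 8 chemicals, with the standard error as a bar; filled points were called lower and open points were not called. APOC1_19115 and APOB_24157 lie farthest to the left in scriptaid and vorinostat, APOM_25033 is open in every panel but mocetinostat, and all points of trichostatin A are open.

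APOB, the scaffold of very low density lipoprotein, was called lower in 7 chemicals. In vorinostat its log2 change was exceeded among the 10 tested features by that of APOC1 only. APOB_24157 counted 3392, 3298 and 3118 CPM at vorinostat C1 in replicates 1 to 3 and 104, 78.5 and 43.3 CPM at C5. That is a 41.1-fold lower level (log2 change -5.36, SE 0.22, edgeR adjusted p = 1.6e-19). In tacedinaline the levels were 4103, 3694 and 3446 CPM at C1 and 144, 172 and 118 CPM at C5 (log2 change -4.64, SE 0.14, edgeR adjusted p = 1.25e-27). In both chemicals every C5 library lay far below every C1 library, and the batches moved alike. Mocetinostat C1 held 6199.9, 5334 and 7151 CPM and C5 267, 347 and 355 CPM (log2 change -4.20, SE 0.20, edgeR adjusted p = 1.07e-09). Scriptaid went from 3230.5 ± 248 to 264 ± 136 CPM (mean ± SD, n = 3), which on the log2 scale is -3.57 (SE 0.41, edgeR adjusted p = 4.72e-06). The log2 changes were -1.78 in apicidin and -1.69 in valproic acid, both called. In panobinostat APOB went from 3455, 3417 and 3364 to 1849, 1865 and 1731 CPM (log2 change -0.93, SE 0.14, edgeR adjusted p = 6.7e-05), with a narrow spread in both groups and no overlap.

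The frame proteins of high density lipoprotein, APOA1 and APOA2, both fell, but to different depths. APOA1_87403 was called lower at C5 in 7 chemicals. Its level went from 1718, 1822 and 1700.0 to 322, 256 and 148 CPM in vorinostat, 6.77-fold lower (log2 change -2.76, SE 0.19, edgeR adjusted p = 4.91e-14). Scriptaid gave -2.65 and tacedinaline -2.58 on the log2 scale. Mocetinostat changed APOA1 by -1.54, valproic acid by -1.25, apicidin by -0.90 and panobinostat by -0.66 on the log2 scale. In panobinostat, with 2352, 2065 and 2020.4 CPM at C1 and 1567, 1299 and 1254 CPM at C5, the groups did not overlap (log2 change -0.66, SE 0.16, edgeR adjusted p = 0.0055).

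APOA1 fell less than APOB in every batch of these 7 chemicals, 21 of 21 batch values. The difference of the log2 changes, APOB minus APOA1 within a batch, averaged -2.65 ± 0.34 in mocetinostat (SD, n = 3) and -2.60 ± 0.04 in vorinostat. In panobinostat it was -0.26 ± 0.06. These are values within a library pair and are given as a description, with no test.

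APOA2_12440 was called lower in 6 chemicals. It reached 3.50, 0.69 and 1.65 CPM at tacedinaline C5 from 97.5, 63.4 and 38.1 CPM at C1 (log2 change -5.08, SE 0.49, edgeR adjusted p = 1.9e-11), and the C5 libraries held 7, 2 and 4 counts. In apicidin it went from 205, 174 and 94.3 to 16.3, 10.8 and 4.47 CPM (log2 change -3.90, SE 0.56, edgeR adjusted p = 1.97e-05), while APOA1 in the same libraries changed by -0.90. In vorinostat the log2 change was -3.69 (SE 0.46, edgeR adjusted p = 3.5e-08) and in mocetinostat -2.68 (SE 0.37, edgeR adjusted p = 4.74e-05). Panobinostat was the exception among the 7, with 46.4, 35.4 and 14.4 CPM at C1 and 23.5, 6.49 and 15.1 CPM at C5, groups that overlap (log2 change -1.13, SE 0.43, edgeR adjusted p = 0.076). With the replicate block, which compares libraries within a HepaRG batch, that change was called lower (log2 change -1.13, edgeR adjusted p = 0.0228). The batches differ in this gene: replicate 1 held the most APOA2 and replicate 3 the least at C1 of each chemical.

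APOA2 did not follow a simple decline with concentration in vorinostat, apicidin or scriptaid. Its group means fell at each step in mocetinostat (114 CPM at C1 to 16.7 CPM at C5) and valproic acid (44.8 to 15.8 CPM). Vorinostat C2 held 162, 125 and 64.7 CPM, above the 60.9, 50.7 and 32.7 CPM of C1 in each batch (log2 change 1.29, edgeR adjusted p = 0.508). Apicidin C2 held 365, 257 and 191 CPM, also above C1 in each batch (log2 change 0.78, edgeR adjusted p = 0.942). Neither difference passed this test, but the vorinostat rise was called when features with low counts were kept in the fit. In scriptaid APOA2 had 99.0, 55.6 and 50.2 CPM at C1 and 205, 60.7 and 60.5 CPM at C3, above C1 in each batch but not called. At C4 it had 140.1, 54.3 and 119.7 CPM, above C1 in replicates 1 and 3, but replicate 3 there is the library that stood apart. At C5 APOA2 lay at 27.2, 11.9 and 3.87 CPM (log2 change -2.20, SE 0.60, edgeR adjusted p = 0.01). A linear trend over all 5 scriptaid concentrations gave a fitted log2 change of -0.49 from C1 to C5 for APOA2, edgeR adjusted p = 0.76.

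APOM, the sphingosine 1-phosphate carrier, was called in fewer chemicals than any other tested feature. APOM_25033 was called lower in mocetinostat only, from 12.6, 14.1 and 11.1 to 2.87, 4.13 and 2.75 CPM (log2 change -1.87, SE 0.47, edgeR adjusted p = 0.00683), and that call was lost without replicate 2 or without replicate 3. Its log2 change in the other 7 chemicals lay between -0.94 (scriptaid, edgeR adjusted p = 0.152) and 0.89 (trichostatin A, edgeR adjusted p = 0.512). Panobinostat C5 held 9.77, 11.5 and 6.88 CPM against 4.99, 4.27 and 6.90 CPM at C1, higher in 2 of 3 batches (log2 change 0.80, SE 0.43, edgeR adjusted p = 0.215). The feature was rare, with at most 62 counts in a library, and the SE of its log2 changes lay between 0.42 and 0.73.

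**Figure D2:**
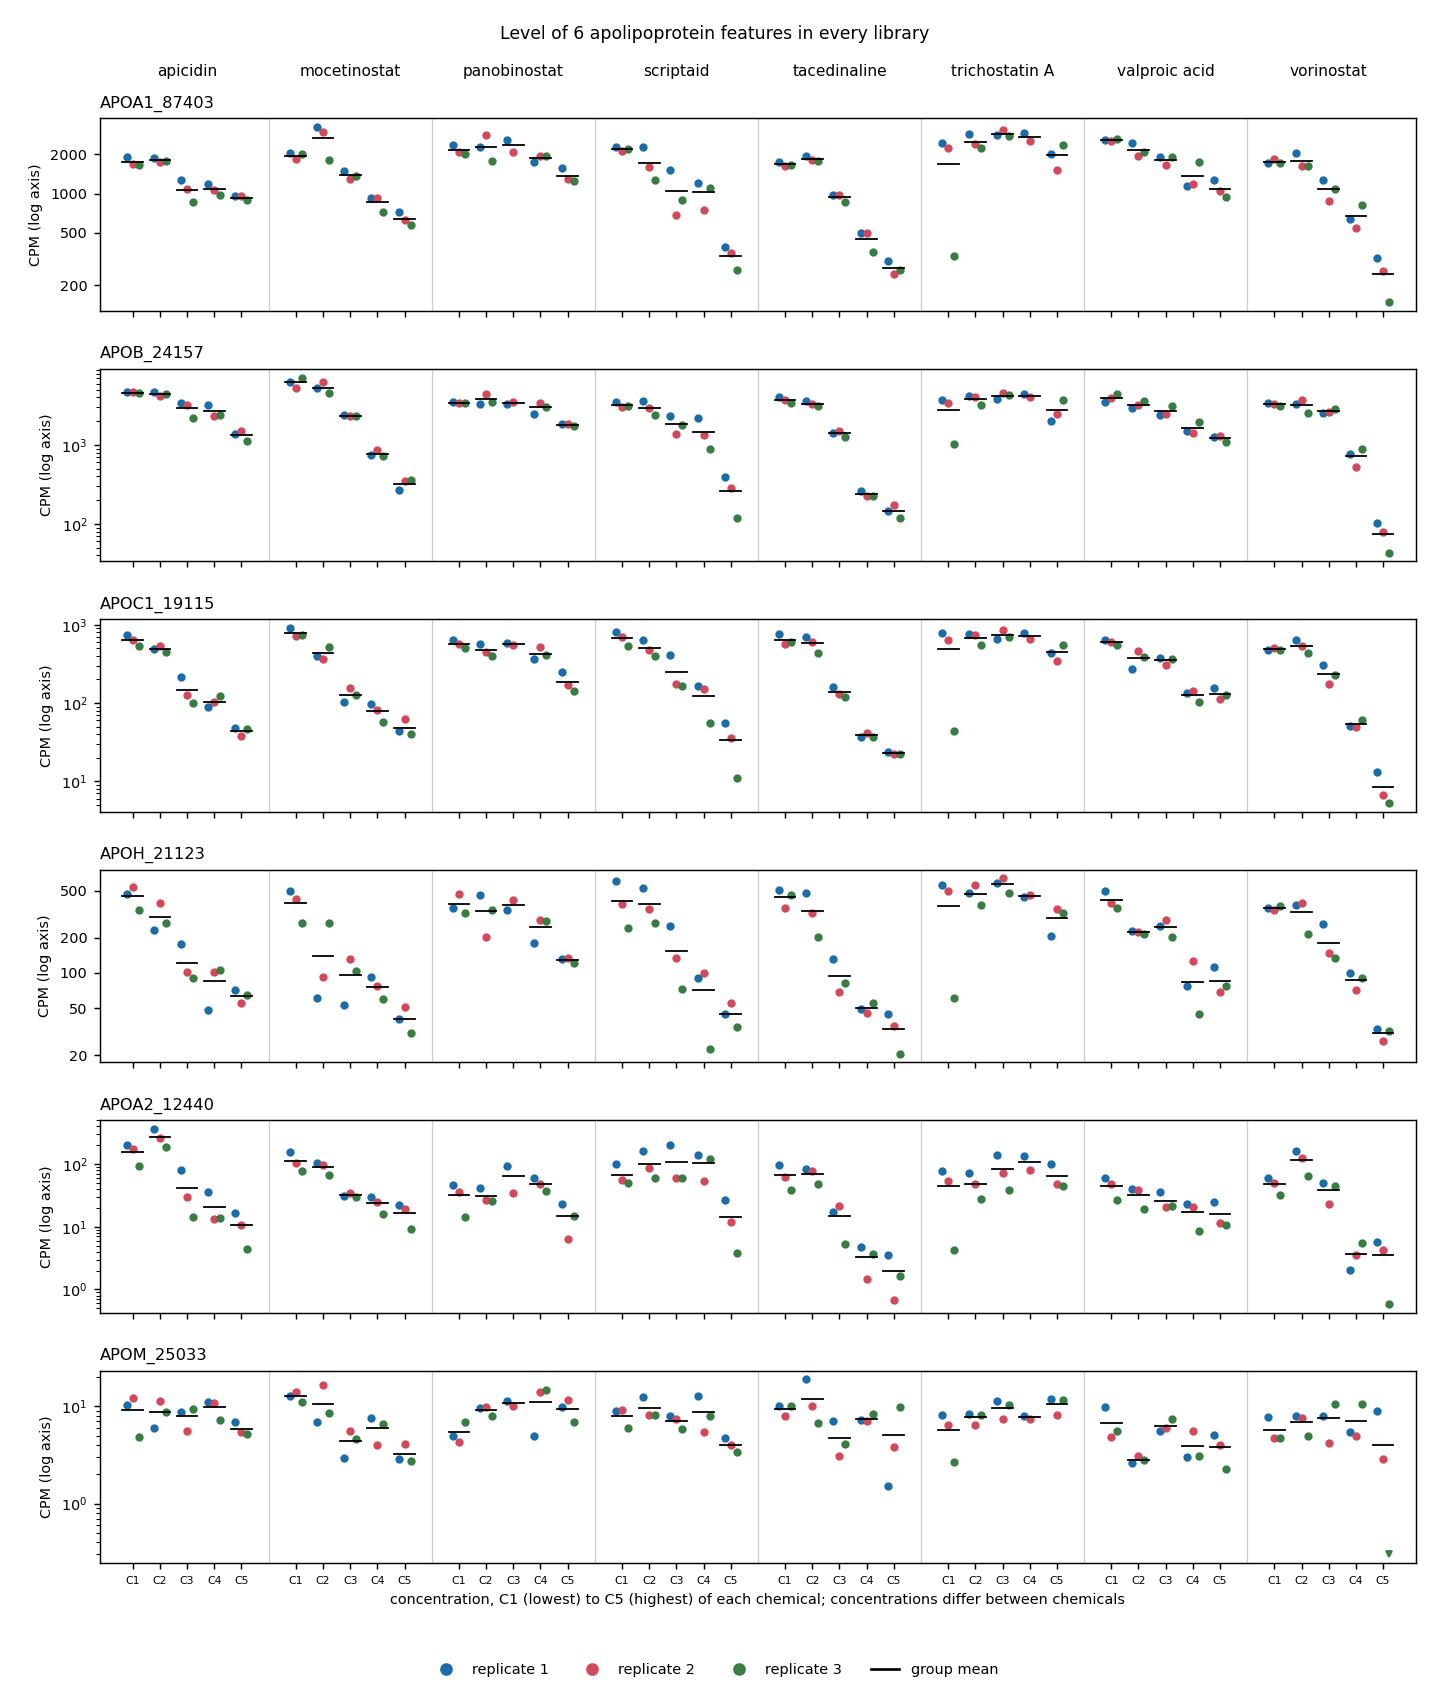
Level (CPM, logarithmic y axis) of 6 apolipoprotein features in every library, by chemical and concentration (x axis); points are libraries coloured by replicate, horizontal lines are group means, and a triangle marks a library with 0 counts, drawn at the bottom. APOB_24157 and APOC1_19115 reach their lowest group means at vorinostat C5, APOM_25033 stays near 3 to 13 CPM in its group means, and trichostatin A C1 replicate 3 lies below its group for all 6 features.

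APOC1, which inhibits lipoprotein lipase and the uptake of remnants, fell in the same 7 chemicals and reached the largest change among the apolipoprotein features, 58.1-fold lower in vorinostat. There APOC1_19115 had 483, 506 and 483 CPM at C1 and 13.1, 6.66 and 5.26 CPM at C5, which is 16, 14 and 9 counts (log2 change -5.86, SE 0.25, edgeR adjusted p = 7.96e-19). Tacedinaline took it from 759, 569 and 598 to 23.5, 22.4 and 22.3 CPM (log2 change -4.76, SE 0.19, edgeR adjusted p = 6.65e-24), and the 3 C5 libraries lay within about 1 CPM of each other. Scriptaid left 54.8, 35.8 and 11.1 CPM of 813, 689 and 541 CPM (log2 change -4.28, SE 0.52, edgeR adjusted p = 8.77e-06), replicate 3 being the lowest. By log2 change, mocetinostat (-3.94) and apicidin (-3.84) were called lower, as were valproic acid (-2.18) and panobinostat (-1.61), and in panobinostat it went from 630.0, 562 and 499 to 247, 171 and 143 CPM without overlap.

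APOE, the ligand of remnant receptors, is the gene next to APOC1 on chromosome 19, with no other coding gene between them in RefSeq. APOE_358 was called lower in 7 chemicals, from -4.22 in tacedinaline (85.5 ± 13.8 CPM at C1 and 4.37 ± 0.212 CPM at C5, mean ± SD, edgeR adjusted p = 7.25e-15) to -0.93 in panobinostat (95.2, 72.3 and 83.5 and 50.8, 42.6 and 39.9 CPM, edgeR adjusted p = 0.00452). APOC1 fell by more than APOE in 20 of 21 batch values. The difference, APOC1 minus APOE, was -2.96 ± 0.20 on the log2 scale in vorinostat (SD, n = 3) and -2.26 ± 0.95 in scriptaid. In mocetinostat the batches gave -1.46, 0.41 and -0.32, so the order of the 2 genes was not the same in each batch. In scriptaid APOE itself varied between batches at C5, with 12.3, 20.2 and 9.18 CPM.

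APOC3, an inhibitor of lipoprotein lipase, lies between APOA4 and APOA1 on chromosome 11, in a run of coding genes APOA5, APOA4, APOC3 and APOA1. It was measured by 2 probes, which share their gene and are not independent. In tacedinaline APOC3_15165 went from 3092, 2267 and 2158 to 260.4, 215 and 190.1 CPM (log2 change -3.44, SE 0.17, edgeR adjusted p = 1.01e-20) and APOC3_356 from 1774, 1279.9 and 1109 to 140.4, 132 and 89.1 CPM (log2 change -3.47, SE 0.18, edgeR adjusted p = 3.14e-20). The probes differed by at most 0.21 in mean log2 change in any chemical, and over 40 group means of log2 CPM they correlated at 0.99. Vorinostat changed them by -2.69 and -2.70, mocetinostat by -2.84 and -2.74, and scriptaid by -2.41 and -2.52, all called lower. In panobinostat APOC3_15165 was called (log2 change -1.02, SE 0.26, edgeR adjusted p = 0.00819) and APOC3_356 was just outside the threshold (log2 change -0.85, SE 0.30, edgeR adjusted p = 0.0511). With the replicate block both were called, the latter with log2 change -0.86, edgeR adjusted p = 0.00615.

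**Figure D3:**
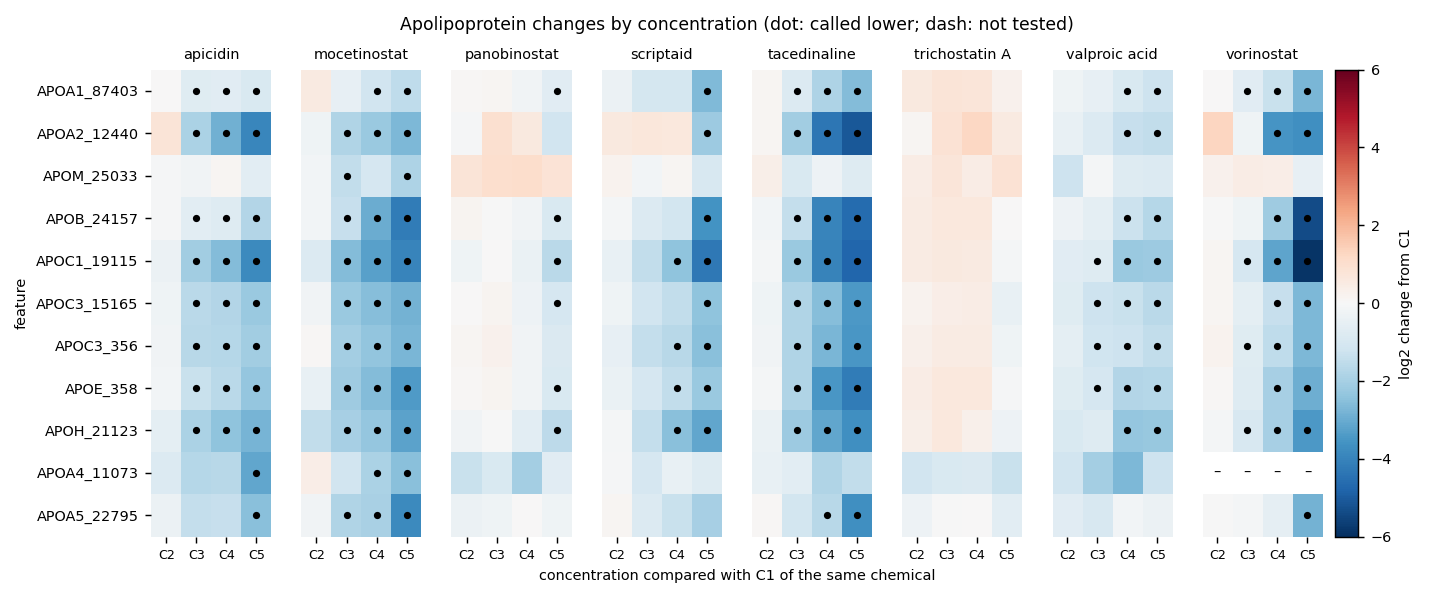
Log2 change from C1 (colour, blue lower and red higher) of the 11 apolipoprotein features (y axis) at C2 to C5 of each chemical (x axis); a dot marks a feature called lower and a dash one that was not tested. Dots appear from C3 in apicidin, mocetinostat, tacedinaline, valproic acid and vorinostat, from C4 in scriptaid and at C5 in panobinostat, and no dot appears at C2 or in trichostatin A.

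APOH, a phospholipid-binding plasma glycoprotein, was called lower in 7 chemicals. In tacedinaline APOH_21123 had 509, 358 and 460.3 CPM at C1 and 44.5, 35.5 and 20.6 CPM at C5 (log2 change -3.67, SE 0.25, edgeR adjusted p = 5.22e-16). Vorinostat gave 360.3, 346 and 369.7 and 33.5, 26.6 and 32.2 CPM (log2 change -3.45, SE 0.24, edgeR adjusted p = 7.06e-14), with little spread in either group. The log2 changes in mocetinostat (-3.20), scriptaid (-3.14), apicidin (-2.81) and valproic acid (-2.27) were called too, and in panobinostat (-1.59) 359, 467 and 324 CPM at C1 stood against 131, 134 and 121 CPM at C5. APOH and APOC1 had the largest called changes in panobinostat, while APOA1 had the smallest.

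APOA5, which promotes triglyceride hydrolysis at low plasma levels, was rarer and was called lower in 4 chemicals. In mocetinostat APOA5_22795 went from 41.0, 31.3 and 62.1 to 3.13, 3.10 and 2.75 CPM (log2 change -3.81, SE 0.42, edgeR adjusted p = 4.27e-06), and in tacedinaline from 21.4 ± 7.82 to 1.63 ± 1.76 CPM (mean ± SD, log2 change -3.69, SE 0.59, edgeR adjusted p = 1.82e-06). Apicidin (log2 change -2.51, SE 0.55, edgeR adjusted p = 0.00152) and vorinostat (log2 change -2.85, SE 0.94, edgeR adjusted p = 0.0115) were called too. At vorinostat C5 the libraries held 0, 5 and 0 counts. In scriptaid the C5 libraries (5.95, 1.14 and 0.483 CPM) lay below those of C1 (12.3, 10.5 and 8.33 CPM), but the change did not pass the test (log2 change -2.00, SE 0.83, edgeR adjusted p = 0.0755). With the replicate block it was called (log2 change -2.35, edgeR adjusted p = 0.0195), as it was by DESeq2 and without scriptaid C4 replicate 3. Panobinostat (-0.27) and valproic acid (-0.37) gave log2 changes near 0 with overlapping groups.

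APOA4, the mainly intestinal member, was measured near the detection limit. APOA4_11073 was called lower in apicidin, from 13.9, 9.45 and 3.51 to 1.58, 0.244 and 1.24 CPM (log2 change -3.10, SE 0.94, edgeR adjusted p = 0.0154), and in mocetinostat, from 19.4, 19.8 and 7.29 to 4.95, 1.29 and 1.53 CPM (log2 change -2.49, SE 0.63, edgeR adjusted p = 0.0069). Leaving out replicate 1 or 2 ended the call in apicidin and leaving out replicate 2 that in mocetinostat. Elsewhere its SE reached 1.03 on the log2 scale and no change at C5 passed with the filter on low counts, though with the replicate block tacedinaline did (log2 change -1.92, edgeR adjusted p = 0.0362). In vorinostat it did not pass the filter on low counts, and it was called lower when that filter was left out. There, at C5, no library held more than 3 counts, the floor used here per library, against 1.66, 2.51 and 3.73 CPM at C1, which makes it at least 1.40-fold lower. The intestinal markers CDX2, SI and FABP2 had at most 3, 6 and 3 counts in any library, while VIL1 and LGR5 of the same list reached 75 and 38, and VIL1 was called lower in 5 chemicals.

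The apolipoproteins were first called at C3 in 5 chemicals, at C4 in scriptaid and at C5 in panobinostat. At C2 edgeR with the filter on low counts, fitted per chemical, called no feature in any chemical, and DESeq2 called 2, both in mocetinostat. Without that filter edgeR called APOH lower in mocetinostat, APOC3_15165 and APOH lower in valproic acid and APOA2 higher in vorinostat, and 1 fit over all libraries called APOH lower in mocetinostat. In the same comparisons 0.0315% of all features were called lower in apicidin, 0.0383% in mocetinostat, 0% in panobinostat, 0% in scriptaid, 0.0883% in tacedinaline, 0% in trichostatin A, 0% in valproic acid and 0.0086% in vorinostat. At an unadjusted p under 0.05, 6 of 11 features were lower at valproic acid C2, 2 at mocetinostat C2 and 1 at apicidin C2, and 1 each was higher in mocetinostat and vorinostat. Wherever counts at an unadjusted p are given, the share of all features at that threshold is not. The percentages for calls are no background for them. In valproic acid all 11 log2 changes at C2 were negative (median -0.67). APOH_21123 there went from 494, 392 and 359 to 228, 224 and 213 CPM (log2 change -0.91, SE 0.25, edgeR adjusted p = 0.674), lower in all batches though not called with the filter. The comparisons of C2 to C5 share their C1 libraries and are not independent of each other.

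At mocetinostat C2 the libraries disagreed. APOH_21123 had 61.3, 92.1 and 266 CPM, against 494, 424 and 268 CPM at C1, and APOA1_87403 had 3222, 2930.3 and 1797 CPM, against 2028, 1823 and 2007 CPM. Replicates 1 and 2 held low APOH and high APOA1, and replicate 3 held levels near its own at C1. Without replicate 3, APOH (-2.49, edgeR adjusted p = 0.00293) and APOC1 (-0.98, edgeR adjusted p = 0.0218) were called lower and APOA1 (0.78, edgeR adjusted p = 0.0123) was called higher. DESeq2 on all 3 replicates called APOC1 and APOH lower, and without C2 replicates 1 and 2 edgeR called 0. That last fit has 1 library at C2, assumed to vary like the other groups, so it says little about C2.

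At C3, 9 of 11 features were called lower in mocetinostat (background 5.14%), 8 of 11 in apicidin (8.39%), 8 of 11 in tacedinaline (6.46%), 4 of 11 in valproic acid (0.84%) and 4 of 10 in vorinostat (3.88%). The 4 in valproic acid were APOC1, APOE and both probes of APOC3, and the 4 in vorinostat were APOA1, APOC1, APOH and APOC3_356. With all libraries in 1 fit, 0 were called at C3 in valproic acid and in vorinostat. With the replicate block vorinostat had 6, adding APOC3_15165 and APOE, and mocetinostat 8, without APOM. APOC1 was among the calls of all 5 chemicals in the fits per chemical, with log2 changes between -2.60 (mocetinostat) and -0.78 (valproic acid). In apicidin most of the change of APOC3_15165 was present by then, with 755 ± 339 CPM at C3, 689 ± 150.3 CPM at C4 and 505 ± 129 CPM at C5, against 2356 ± 587 CPM at C1 (mean ± SD, n = 3). APOB in vorinostat was not called until C4: 2505, 2626 and 2871 CPM at C3 (log2 change -0.27, SE 0.17, edgeR adjusted p = 0.399), 769.8, 522 and 882 CPM at C4 and 104, 78.5 and 43.3 CPM at C5. Scriptaid (background 0.876%), panobinostat (0%) and trichostatin A (0%) had 0 calls at C3 by edgeR with the filter on low counts, with 7, 0 and 0 features lower at an unadjusted p under 0.05 and DESeq2 calling 2, 0 and 0. Without the filter edgeR called APOA1 and APOA2 higher at trichostatin A C3 and APOA2 higher at C4, against the C1 group that holds the library that stood apart.

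Which scriptaid features were called at C3 depended on the fit. APOC3_356 had 1087, 883 and 653 CPM at C1 and 491, 264 and 232 CPM at C3 (log2 change -1.41, SE 0.38, edgeR adjusted p = 0.0766), with replicate 1 highest at both concentrations. With the replicate block 5 features were called lower at C3 (APOA1, APOC1, APOH and both probes of APOC3) instead of 0, and 7 at C4 instead of 4. The same 5 were called at C3, and 6 at C4, without scriptaid C4 replicate 3, which stood apart. Keeping features with low counts gave the same 5 at C3 and 7 at C4, and 1 fit over all libraries gave 7 at each. DESeq2 called 2 at C3 (APOA1 and APOC3_356) and 7 at C4.

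At C4, 10 of 11 features were called lower in mocetinostat (background 11.6%), 9 of 11 in tacedinaline (16.4%), 8 of 11 in apicidin (11.2%), 8 of 11 in valproic acid (6.35%), 8 of 10 in vorinostat (16.7%) and 4 of 11 in scriptaid (2.67%). Panobinostat (1.4%) and trichostatin A (0%) had 0. In panobinostat 3 features were lower and 1 was higher at an unadjusted p under 0.05, and DESeq2 called 0 in both. Without the filter on low counts edgeR called APOH lower in panobinostat. In tacedinaline APOC1 at C4 (36.9, 41.8 and 37.1 CPM) was above its C5 level (23.5, 22.4 and 22.3 CPM) by less than it lay below C1, and in valproic acid APOE had 38.8, 23.4 and 31.7 CPM at C4 and 32.3, 31.4 and 31.6 CPM at C5, values that overlap. In panobinostat APOB still held 2498, 3432 and 3036 CPM at C4, overlapping its C1 libraries, and fell below them at C5.

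In trichostatin A the comparison turned on 1 library. C1 replicate 3 held 44.0 CPM of APOC1_19115 where replicates 1 and 2 held 795 and 646 CPM, 6.10% of their mean, and 1042 CPM of APOB where they held 3756 and 3406 CPM (29.1%). At C2 the same batch held 547 CPM of APOC1, close to the other batches. The summed level of 15 hepatocyte marker features was 18887 CPM in the lowest C1 library of trichostatin A and up to 83868 CPM in the others, and the lowest was replicate 3.

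Within replicates 1 and 2, APOC3_15165 went from 2124 and 1856 CPM at C1 to 1072 and 905 CPM at C5. The log2 changes of APOC1 by batch were -0.87, -0.89 and 3.62, and those of APOH -1.43, -0.48 and 2.41: the first 2 batches fell and the third rose. Without the library that stood apart, APOC3_15165 (log2 change -0.89, edgeR adjusted p = 0.00764) and APOH_21123 (-0.82, edgeR adjusted p = 0.0294) were called lower at C5. Without replicate 3 at every concentration, 5 were called: APOB (-0.65, edgeR adjusted p = 0.00878), APOC1 (-0.86, edgeR adjusted p = 0.0108), APOH (-0.89, edgeR adjusted p = 0.0197) and both probes of APOC3 (-0.98, edgeR adjusted p = 0.0014, and -0.68, edgeR adjusted p = 0.0272). With C2 in place of C1 as the reference, 0 were called, and the log2 changes were -0.68 for APOC3_15165 and -0.68 for APOH. C1 replicate 3 stayed in that fit and entered its estimate of spread, so the lack of calls does not show that C5 was like C2. For these and the other alternative fits the share of all features called is not given, so their counts have no background. APOM_25033 went the other way, with 8.03, 6.42 and 2.69 CPM at C1 and 11.9, 8.04 and 11.7 CPM at C5, higher in each of the 3 batches but not called (log2 change 0.89, SE 0.42, edgeR adjusted p = 0.512).

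**Figure D4:**
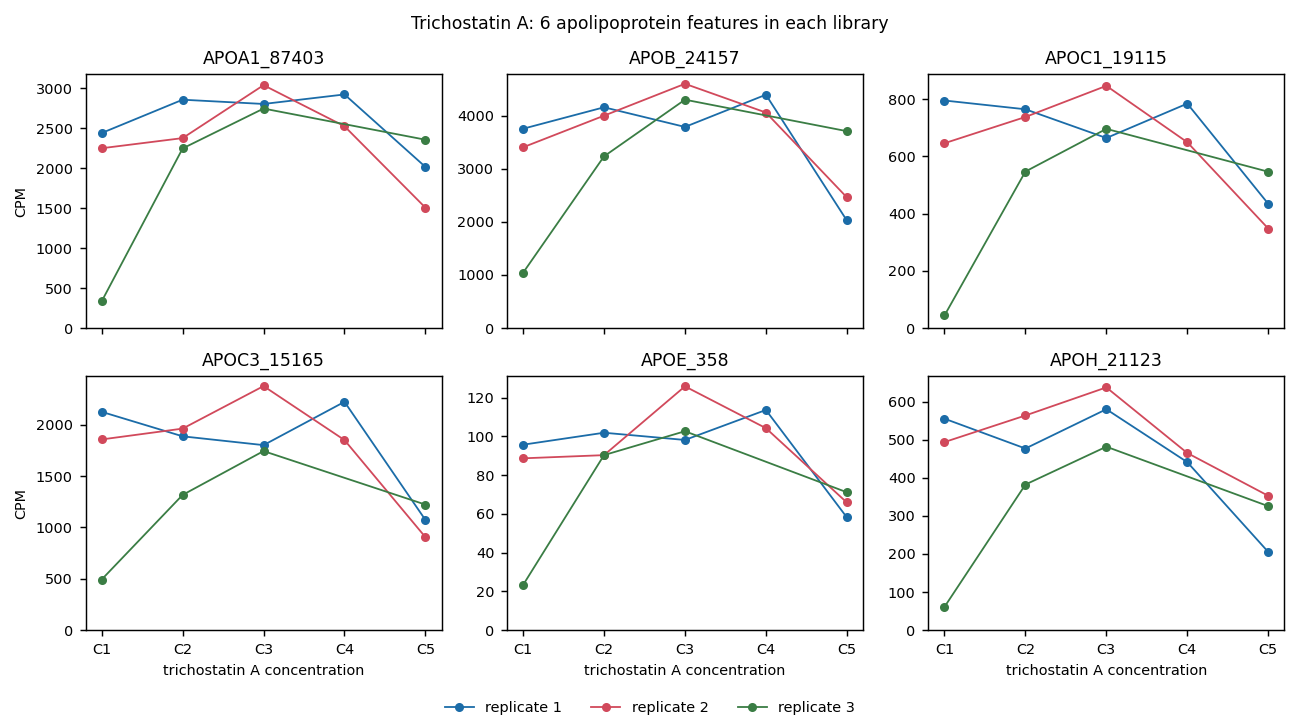
Level (CPM, y axis from 0) of 6 apolipoprotein features in each trichostatin A library, by concentration (x axis), with the libraries of a HepaRG batch joined by a line; replicate 3 has no C4 library. Replicate 3 at C1 lies far below the other libraries in all 6 panels, and replicates 1 and 2 are lower at C5 than at C1 in all 6.

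Across the 40 groups the apolipoproteins varied together. Over group means of log2 CPM, which share plates, batches and the chemicals themselves, the 10 features tested in all chemicals correlated with each other at 0.57 to 0.99. APOM (0.57 to 0.66) and APOA5 (0.57 to 0.84) were both rare and gave the lowest value, while APOC1 correlated at 0.95 with APOE and 0.95 with APOH. Among 11278 other features, those most like the mean standardised profile of these 10 were HPD_18690 (a tyrosine-degrading enzyme, r = 0.966), ECHDC2_16957 (0.962), F9_2297 (coagulation factor IX, 0.961), TF_15172 (transferrin, 0.960) and FGB_2397 (fibrinogen beta chain, 0.960). These correlations are over 40 group means and describe likeness only.

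Hepatocyte markers moved with the apolipoproteins. Of 15 marker features, 13 to 15 were called lower at C5 in each of the 7 chemicals. Medians of the log2 change there lay between -4.90 and -1.53 (-4.72 and -1.53 where features with at most 3 counts in each C5 library take their bound). In trichostatin A 0 were called, with the C1 library that stood apart included. Their summed level went from 54262 to 69453 CPM at vorinostat C1 to 3662 to 6984 CPM at C5, and from 59697 to 76989.5 to 25971 to 34339 CPM in panobinostat. ALB changed by -4.25 (SE 0.15, edgeR adjusted p = 3.85e-25) in tacedinaline and -1.21 (SE 0.15, edgeR adjusted p = 8.92e-06) in panobinostat. In a bulk lysate fewer hepatocyte-like cells and less RNA per cell cannot be told apart, and the part of either in the apolipoprotein changes was not tested.

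Markers of other cell types did not move as one. For these and the gene lists below, 6.22% (valproic acid) to 24.9% (vorinostat) of all features were called lower in the 7 chemicals. The share called higher ran from 4.84% to 22.7%, and trichostatin A had 0.0154% lower and 0% higher. Among biliary or progenitor markers (11 features, summed level 64.8 to 168 CPM at C1 and 65.9 to 229 CPM at C5), 11 of 39 tests were called higher and 1 lower. SPP1_6720 rose in 5 chemicals, by 3.34 (SE 0.35, edgeR adjusted p = 5.87e-07) in panobinostat, and SOX9_22075 in 5, by 1.85 (SE 0.23, edgeR adjusted p = 3.35e-06) in apicidin. Of 70 tests of stromal markers, 27 were called lower and 8 higher. COL3A1_28516 fell in 7 chemicals (-3.73 in panobinostat) and COL1A1_1466 rose in 6 (3.04 in scriptaid). Their summed level over 11 features was 179 to 363 CPM at C1 and 109 to 232 CPM at C5. Immune markers (6 features, 24.7 to 121 CPM at C1 and 15.2 to 52.9 CPM at C5) gave 3 of 16 tests lower, PTPRC had 0 counts in every library, and intestinal markers (5 features, 2.43 to 20.8 CPM at C1 and 2.45 to 13.5 CPM at C5) gave 5 of 14 lower and 1 higher. The part of these cell types in the apolipoprotein results was not tested.

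**Figure D5:**
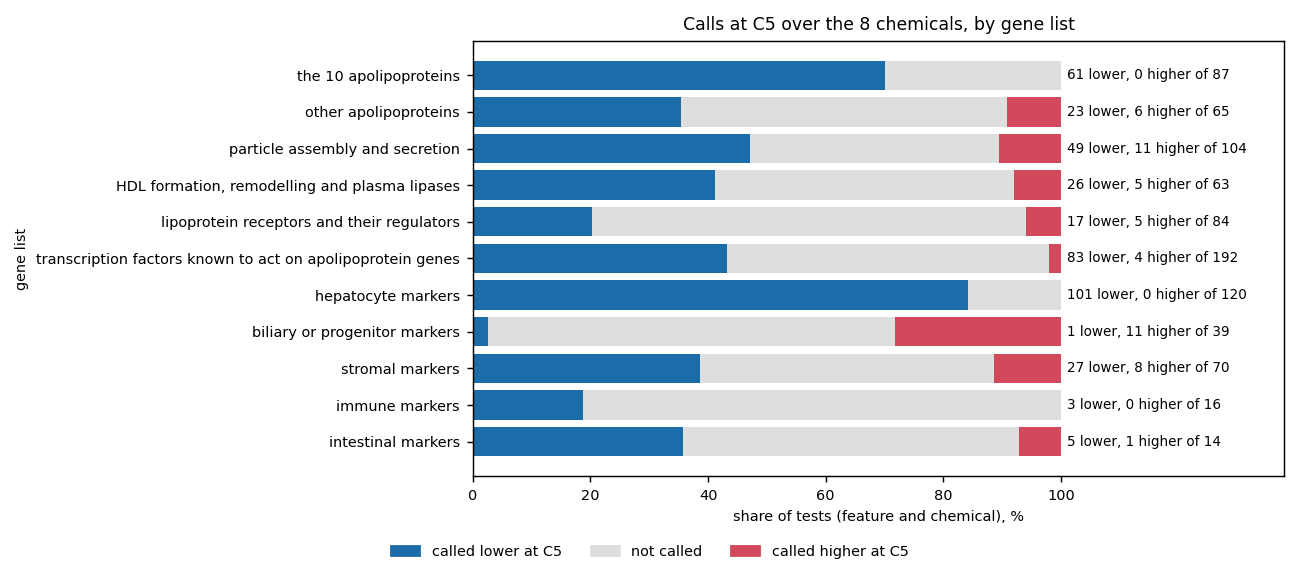
Share of tests (x axis, percent; a test is 1 feature in 1 chemical) called lower, called higher or not called at C5, for the 10 apolipoproteins and for each other gene list (y axis), summed over the 8 chemicals. The apolipoproteins had 61 of 87 lower and 0 higher, hepatocyte markers 101 of 120 lower, and lipoprotein receptors 17 of 84 lower and 5 higher. Of all features, 6.22% (valproic acid) to 24.9% (vorinostat) were called lower, and 0.0154% in trichostatin A.

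Genes that build and secrete APOB particles were called lower more often than higher. Of 104 tests over the 15 features of this list, 49 were called lower and 11 higher, with 5 to 9 lower in each of the 7 chemicals and 0 in trichostatin A. The median log2 change lay between -1.63 and -0.38 in those 7. MTTP_10636, the triglyceride transfer protein that loads APOB, fell in 7 chemicals, with log2 change -5.34 (SE 0.46, edgeR adjusted p = 3.14e-07) in mocetinostat and -1.34 (SE 0.31, edgeR adjusted p = 0.00376) in panobinostat. In tacedinaline it had at most 3 counts in each C5 library and was at least 33.5-fold lower. PLA2G12B_11774, a catalytically inactive phospholipase needed for very low density lipoprotein, fell in 7, with log2 change -3.58 (SE 0.54, edgeR adjusted p = 6.89e-05) in panobinostat. CIDEB_26353, which helps to lipidate the particles, fell in 7, with log2 change -2.78 (SE 0.67, edgeR adjusted p = 0.000796) in vorinostat and at least 28.0-fold in scriptaid. MIA2_18121, part of the export machinery for large cargo, fell in 7 (-4.72 in vorinostat). Its relative MIA3 differed in sign: MIA3_90321 rose in 5, by 0.69 (SE 0.14, edgeR adjusted p = 0.000125) in tacedinaline.

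Among genes of high density lipoprotein formation, remodelling and plasma lipases, 26 of 63 tests were called lower and 5 higher, and the median log2 change in the 7 chemicals ran from -3.14 to 0.39. ABCA1_22891, the transporter that hands cholesterol to APOA1, fell in 7, from -4.58 in vorinostat to -1.61 in valproic acid. PON1_15236, an esterase carried on high density lipoprotein, fell in 7 and LIPC_15082, hepatic lipase, in 5. LPL_15084, lipoprotein lipase, rose in scriptaid (log2 change 1.48, SE 0.32, edgeR adjusted p = 0.00166), and also in valproic acid by 1.01 and in panobinostat by 1.25 on the log2 scale, and its inhibitor ANGPTL4_28320 rose in scriptaid and valproic acid.

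Lipoprotein receptors and their regulators had 17 of 84 tests called lower and 5 higher, with medians between -0.33 and 0.27. The share called lower was under that of all features in scriptaid (1 of 11, 9.09% against 17%) and tacedinaline (2 of 11, 18.2% against 20.1%). It was above that share in apicidin and mocetinostat (3 of 11 each) and panobinostat (3 of 10). The same held in valproic acid (1 of 10, against 6.22%) and vorinostat (4 of 9, 44.4% against 24.9%). These shares rest on few features, so small differences from the background say little. LRP1_21937, a remnant receptor, fell in 6 (-2.48 in mocetinostat). MYLIP_17818, a ubiquitin ligase, rose in 3, by 2.35 (SE 0.45, edgeR adjusted p = 0.000489) in apicidin.

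Of the transcription factors known to act on apolipoprotein genes, 83 of 192 tests over the 28 features of this list were called lower and 4 higher. In the 7 chemicals, 2 of 24 in valproic acid (8.33%, background 6.22%) to 18 of 26 in mocetinostat (69.2%, background 15.7%) were called lower. The median log2 change there ran from -1.72 to -0.32. HNF4A_28261 fell in 6, with log2 change -4.59 (SE 0.71, edgeR adjusted p = 0.000127) in mocetinostat and -1.74 (SE 0.44, edgeR adjusted p = 0.0082) in panobinostat. In valproic acid its log2 change was -1.19 (SE 0.42, edgeR adjusted p = 0.0738). NR1H4_25084, the bile acid receptor, fell in 6, by at least 41.2-fold in tacedinaline. PROX1_87940 fell in 7 and FOXA1_22204 in 6. CREB3L3_29025, an activator of APOA4 and APOA5 among others, fell in 5 and rose in scriptaid (log2 change 1.03, SE 0.37, edgeR adjusted p = 0.0439). NR2F1_20784, a repressor of several of these promoters, rose in panobinostat and valproic acid.

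The remaining apolipoproteins of the panel gave 23 of 65 tests lower and 6 higher, with medians between -1.51 and -0.34 in the 7 chemicals. APOL6_20904, an intracellular member of the APOL family, fell in 7 (-4.12 in mocetinostat), SAA4_33481, carried on high density lipoprotein, in 6, APOL1_20931 in 5 and APOL2_23484 in 4. CLU, which encodes apolipoprotein J, rose in apicidin and vorinostat by both probes (CLU_15548 by 0.96 (SE 0.28, edgeR adjusted p = 0.0113) and 1.19 (SE 0.23, edgeR adjusted p = 4.75e-05)), and CLU_15548 fell in mocetinostat (log2 change -1.15, SE 0.33, edgeR adjusted p = 0.0141). APOOL_12663, a mitochondrial protein of the cristae, rose in apicidin and vorinostat. APOC2, APOC4, APOF and LPA passed the filter on low counts in no chemical.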

How the data were processed

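TempO-Seq probe counts of 118 libraries of HepaRG cells were used. The authors deposited 1 table of whole-number counts per detector probe, not normalised. The submitters' processing notes name bcl2fastq 2.20.422, fastp 0.23.2, STAR 2.7.10b and DESeq2 1.38.0 without their roles, and the genome build and probe annotation are not given in the sources used here. The last row of the table lacks values in most libraries and was left out, so 22068 of 22069 rows were used.

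Groups were taken from the sample labels. For each chemical, edgeR 4.0.16 (R 4.3.3) was run with trimmed mean of M values scaling, filterByExpr, and 5 concentration terms in a quasi-likelihood F test of C2 to C5 against C1. P-values were adjusted by Benjamini-Hochberg over all features tested. A log2 change has as its SE its size divided by the square root of F. Log2 CPM used a prior count of 2. Where no library of a group held more than 3 counts of a feature, its fold change is a bound, which covers counting error only. Libraries have no molecular identifiers named in the sources used here. Scripts were tested on simulated data.

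Alternatives were DESeq2 1.42.0, upper-quartile scaling, no filter on low counts, a replicate block, 1 fit over all libraries, a trend on log2 concentration and leaving out each replicate. The trend is given as its fitted change from C1 to C5. Leaving out libraries that stood apart and C2 as reference were chosen after seeing the data. The replicate numbers pair the samples because the labels tie each to a HepaRG batch. Deviations from group means, over 9072 features, had a median correlation of 0.053 within a batch (232 pairs) and -0.024 between batches (464 pairs). The members and gene lists were chosen with earlier results of these data known. From each gene list up to 4 features are named, those called at C5 in the most chemicals, and features called in the opposite direction. Some features that this rule names are not reported here.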

Additional observations from a re-analysis of the deposited data

Results flagged for a closer look

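APOM_25033 in trichostatin A was higher at C5 than at C1 in all 3 batches (log2 change 0.89, SE 0.42, edgeR adjusted p = 0.512), while it was lower in all 3 batches in mocetinostat, scriptaid, tacedinaline and valproic acid. The difference between these chemicals was not tested. The C1 group of trichostatin A holds the library that stood apart, in which APOM was at 2.69 CPM, and the change was not called in any alternative.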

How the results depend on the processing

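At C5, 550 of 568 alternative values of the 61 called changes kept the call and the direction. The other 18 concerned 9 changes and kept the direction: APOA1, APOE and APOC3_15165 in panobinostat, APOA2 in scriptaid and valproic acid, APOA4_11073 in apicidin and mocetinostat, APOA5 in vorinostat and APOM in mocetinostat. With the replicate block, scriptaid had 5 features called lower at C3 and 7 at C4. That block changed the call at C5 for APOA2 and APOC3_356 in panobinostat, APOA4_11073 in tacedinaline and APOA5 in scriptaid, and for no other feature there. At C3 and C4 it also added APOA5 in apicidin, APOA4_11073 at tacedinaline C4, and APOC3_15165 and APOE at vorinostat C3, and ended the call of APOM at mocetinostat C3. It changed no other call of an apolipoprotein feature. With all libraries in 1 fit, the calls at C3 were 0 in valproic acid and vorinostat, and 7 in scriptaid. Without the libraries that stood apart, 5 were called lower at scriptaid C3 and 2 at trichostatin A C5. Leaving out 1 replicate at a time gave 0 to 2 lower and 0 to 1 higher at mocetinostat C2 (2 and 1 without replicate 3), 5 to 7 lower at mocetinostat C3 (5 without replicate 2), 3 to 6 at panobinostat C5 (3 without replicate 1), 0 to 4 at scriptaid C3, 0 to 6 at scriptaid C4 (0 without replicate 2, 1 without replicate 1), 0 to 5 at trichostatin A C5 (5 without replicate 3), 0 to 4 at valproic acid C3 (0 without replicate 1 or 2) and 1 to 5 at vorinostat C3 (1 without replicate 2). DESeq2 called 2 tests of biliary or progenitor markers lower, against 1.

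Changes of sign were found in features that were not called. In trichostatin A, log2 changes were -0.24 for APOA1, -0.022 for APOA2 and -0.38 for APOB without the library that stood apart, and -0.34 for APOA1 and -0.47 for APOB with C2 as reference. Upper-quartile scaling gave -0.0020 for APOB, the replicate block gave 0.12 for APOC1 and 0.022 for APOE, and the trend gave 0.0067 for APOE. Leaving out replicates in trichostatin A gave -0.39 to 0.68 for APOA1, -0.65 to 0.48 for APOB, -0.86 to 0.38 for APOC1, -0.68 to 0.033 for APOC3_356, -0.55 to 0.30 for APOE and -0.89 to 0.29 for APOH. In valproic acid it gave -0.97 to 0.016 for APOA5. The cause was not tested. Features with few counts, APOA4, APOA5 and APOM, limit what these libraries can show.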
